A study of Arabidopsis thaliana with 9 samples.

Results

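The 3 genes described here encode enzymes of the Calvin cycle, the chloroplast pathway that fixes carbon dioxide into sugar phosphates. They were chosen by name, as the probe sets that the platform annotation assigns to RCA (AT2G39730), SBPASE (AT3G55800) and PRK (AT1G32060). Each gene was named by 1 probe set, so the genes account for 3 of the 22746 probe sets on the array other than controls, and all 3 were among the 15922 bright enough to be tested. Signals were measured on 9 single-colour Affymetrix arrays, 3 biological replicates for each of the F1 hybrid of Col and C24, the accession C24 and the accession Col of Arabidopsis thaliana. All plants were seedlings at 10 DAS, sampled whole but without the root after growth at 22 degrees with a photoperiod of 16 h and 8 h under fluorescent lights. No group carried a transgene, a mutation or a treatment according to the labels, which do not say which parent was the mother of the F1 or how many plants made up a replicate.

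In the Calvin cycle, Rubisco joins carbon dioxide to ribulose bisphosphate, later steps reduce the product to triose phosphate, and the remaining steps rebuild the acceptor. RCA, Rubisco activase, is the chaperone-like ATPase that frees Rubisco from inhibitory sugar phosphates. SBPASE, sedoheptulose bisphosphatase, removes a phosphate from sedoheptulose bisphosphate and commits carbon to rebuilding the acceptor. PRK, phosphoribulokinase, makes ribulose bisphosphate in the last step of that rebuilding. Transcripts of all these genes are abundant in green leaf tissue, and SBPASE and PRK are switched on in the light through the ferredoxin and thioredoxin system. RefSeq lists 3 transcripts for RCA and 1 each for SBPASE and PRK, so for RCA the array signal was not resolved by splice form.

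The first question was how far the 3 genes differ between the hybrid and its parents. None of them did so past the test used here. In whole seedlings, fewer cells of a type and less RNA per cell cannot be told apart. Signals are given as linear intensities after quantile normalization, which gives every array the same distribution of values, so that 2 arrays hold the same value for a gene when it has the same rank on both.

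RCA, which acts on Rubisco itself, had normalized signals of 5805, 5729 and 5420 in the F1 hybrid, 5805, 5622 and 5321 in C24 and 5662, 5444 and 6345 in Col for replicates 1, 2 and 3. The 3 groups overlapped, and the highest value of all was that of Col replicate 3. Means were 5651 ± 204 in F1, 5583 ± 244 in C24 and 5817 ± 470 in Col (SD, n = 3 arrays each), and over all 9 arrays the highest signal was only 1.19 times the lowest. In each array RCA held a place between 6 and 22 from the brightest of the 22746 probe sets.

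SBPASE, the bisphosphatase of the rebuilding steps, had normalized signals of 3446, 2912 and 2991 in F1, 3393, 2991 and 3865 in C24 and 3630, 3446 and 3621 in Col. F1 lay lowest on average, but its highest array reached the lowest of Col and lay within the range of C24. Means were 3116 ± 288 in F1, 3416 ± 437 in C24 and 3565 ± 104 in Col (SD, n = 3 each). The highest of the 9 arrays was 1.33 times the lowest.

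PRK, the kinase that completes the acceptor, had normalized signals of 4826, 4491 and 4467 in F1, 4826, 4491 and 4534 in C24 and 4547, 4257 and 3325 in Col. F1 and C24 had nearly equal values, and Col was lower on average, with its replicate 3 the lowest of all 9 arrays. Means were 4594 ± 201 in F1, 4617 ± 182 in C24 and 4043 ± 639 in Col (SD, n = 3 each). The highest array was 1.45 times the lowest.

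**Figure D1:**
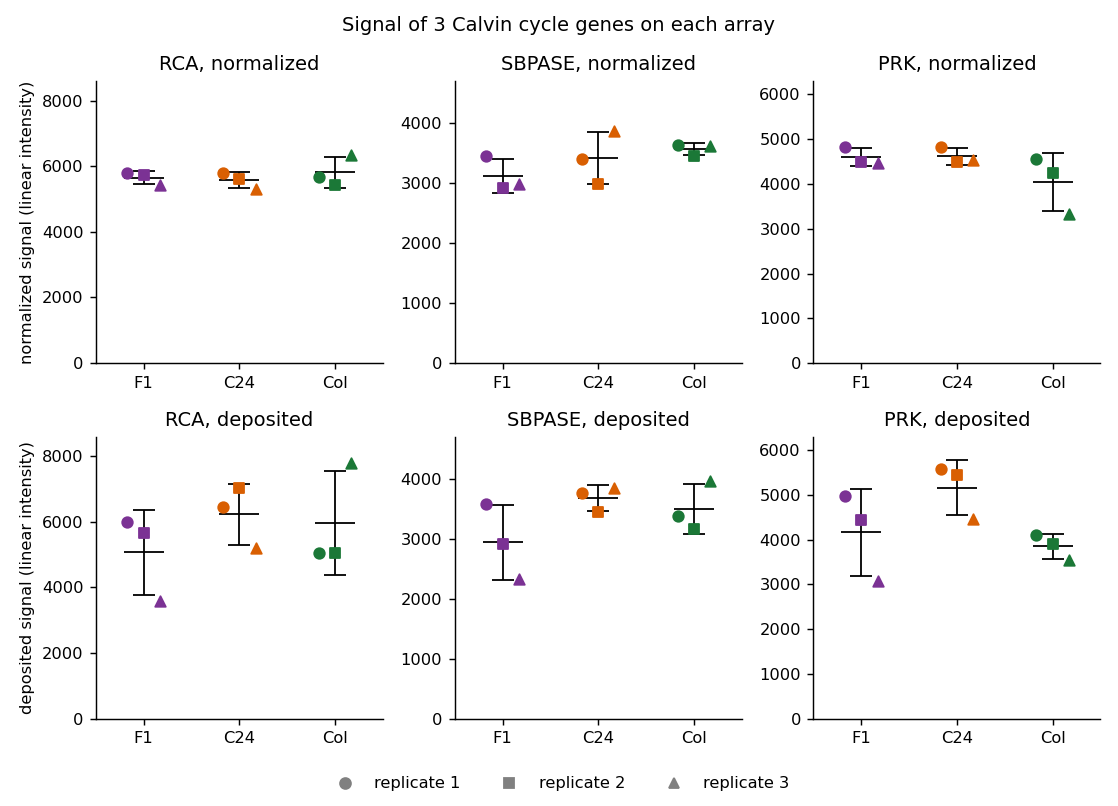
Signal of RCA, SBPASE and PRK on each of the 9 arrays, as normalized here (upper row) and as deposited (lower row), on a linear intensity scale that starts at 0. Points are arrays with the replicate number as shape, black bars are the group mean and SD (n = 3 each); normalized RCA stays between 5321 and 6345 in all groups, while the deposited RCA signal runs between 3595 and 7790.

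Ordered by mean, RCA ran Col, F1, C24 from high to low, SBPASE ran Col, C24, F1, and PRK ran C24, F1, Col. No neighbours in any of these orders differed beyond their spread by the test, and neither did the highest from the lowest group. The test was limma across all 15922 probe sets with Benjamini-Hochberg adjustment and a threshold of 0.05, and differences below are on the log2 scale with their SE. The replicate number was not a factor in this test, and the fit with it as a block is given at the end.

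Between the parents, the difference of C24 from Col was -0.06 ± 0.07 for RCA (adjusted p = 0.737), -0.07 ± 0.11 for SBPASE (adjusted p = 0.78) and 0.20 ± 0.11 for PRK (adjusted p = 0.328) in limma. As a ratio of C24 to Col with its 95% interval, this was 0.961 (0.856 to 1.08) for RCA, 0.953 (0.81 to 1.12) for SBPASE and 1.15 (0.972 to 1.36) for PRK. The interval was thus widest for PRK, where the upper bound lay 36.4% above Col, and narrowest for RCA, where it lay 7.93% above. Across all probe sets 8.47% were called between C24 and Col, against 0 of the 3 genes, and 0 of the 3 had an unadjusted p under 0.05 in limma, where 21.6% of all probe sets did.

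For PRK, 1 array decided the size of this difference. Without Col replicate 3 the log2 difference of C24 from Col was 0.07, and without Col replicate 1 it was 0.30, with adjusted p between 0.157 and 0.688 over the 9 arrays left out in turn. Without C24 replicates 1, 2 or 3 it stayed between 0.17 and 0.22. Taken within replicate numbers 1, 2 and 3, PRK was higher in C24 than in Col by 0.09, 0.08 and 0.45 in log2, and 24.9% of the tested probe sets were higher in C24 at all 3 numbers.

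For the hybrid against Col, the log2 differences were -0.04 ± 0.07 for RCA, -0.20 ± 0.11 for SBPASE and 0.20 ± 0.11 for PRK, with adjusted p of 0.947, 0.649 and 0.665 in limma. The ratios of F1 to Col were 0.973 (95% interval 0.867 to 1.09) for RCA, 0.872 (0.741 to 1.03) for SBPASE and 1.15 (0.967 to 1.36) for PRK. Of all probe sets 0.509% were called in this comparison and 0 of the 3 genes, while 8.92% of all and 0 of the 3 had an unadjusted p under 0.05. For PRK the difference was 0.06 without Col replicate 3 and 0.29 without Col replicate 1. For SBPASE it lay between -0.27 and -0.15 whichever array was left out. Within replicate numbers 1, 2 and 3, F1 minus Col was -0.08, -0.24 and -0.28 for SBPASE and 0.09, 0.08 and 0.43 for PRK. Of all tested probe sets 17.3% were lower and 15.9% higher in F1 at all 3 numbers. In the data only number 1 clearly paired F1 with Col, so these differences within numbers are a description.

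For the hybrid against C24, which shares its F1 arrays with the comparison above, the log2 differences were 0.02 ± 0.07 for RCA, -0.13 ± 0.11 for SBPASE and -0.01 ± 0.11 for PRK, with adjusted p of 0.955, 0.694 and 0.989 in limma. The ratios of F1 to C24 were 1.01 (95% interval 0.902 to 1.14) for RCA, 0.915 (0.777 to 1.08) for SBPASE and 0.995 (0.84 to 1.18) for PRK. In this comparison 2.08% of all probe sets were called and 0 of the 3 genes. An unadjusted p under 0.05 was found for 13% of all probe sets and for 0 of the 3. For SBPASE the difference was -0.04 without C24 replicate 3, the brightest SBPASE array of the 9, and -0.22 without C24 replicate 2.

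Against the mid-parent value, which averages the linear signals of the parents and stands for additive expression, F1 differed by -0.01 ± 0.06 in log2 for RCA, -0.16 ± 0.09 for SBPASE and 0.09 ± 0.09 for PRK. Adjusted p in limma was 0.997, 0.995 and 0.995. The ratio of F1 to the mid-parent value was 0.992 (95% interval 0.898 to 1.1) for RCA, 0.893 (0.775 to 1.03) for SBPASE and 1.07 (0.92 to 1.23) for PRK. Here 0.0377% of all probe sets were called and 0 of the 3 genes, and 5.04% of all and 0 of the 3 had an unadjusted p under 0.05. A count over 3 genes is too short to be read against such shares.

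**Figure D2:**
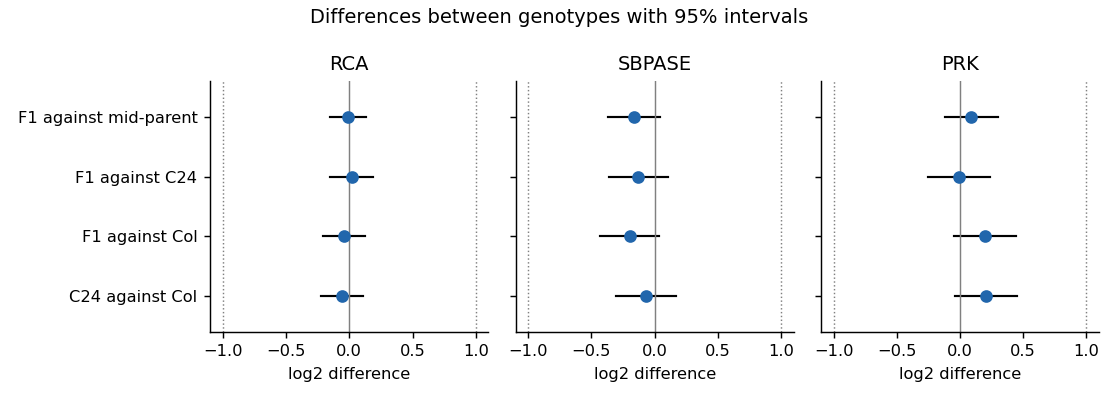
Log2 differences of RCA, SBPASE and PRK in the 4 comparisons (points) with 95% intervals from limma (lines); dotted lines mark a 2-fold difference in either direction. All 12 intervals include 0 and lie well inside the dotted lines, the widest reach being 0.45 for PRK in C24 against Col.

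The 3 genes varied little between replicates compared with most probe sets. Their residual SD in log2 was 0.08 for RCA, 0.13 for SBPASE and 0.15 for PRK, and 98.3%, 89.9% and 86.2% of the tested probe sets had a larger one. Bright probe sets vary less in general, and among the 117 with a mean log2 signal at least that of SBPASE the residual SD of RCA lay near the middle (59% had a larger one), while those of SBPASE and PRK were on the high side (19.7% and 13.7% had a larger one). Of these 117 bright probe sets, 1 was called between C24 and Col, higher in C24, and 0 in each of the other comparisons in limma. The absolute difference of PRK between C24 and Col was larger than that of 91.5% of the 117, and that of SBPASE between F1 and Col larger than that of 92.3%.

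The deposited signals of the 3 genes spread more widely, and the deposited arrays also differed at their bright end. They had been scaled to an equal trimmed mean of 150 before deposit, but the 99th percentile of the deposited signal was 2728, 2662 and 2125 in F1, 2879, 3083 and 2727 in C24 and 2516, 2482 and 2826 in Col. F1 replicate 3 had the least bright upper end of the 9.

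The deposited RCA signal was 5983, 5660 and 3595 in F1, 6439, 7033 and 5212 in C24 and 5048, 5043 and 7790 in Col. For SBPASE it was 3578, 2904 and 2326 in F1, 3768, 3435 and 3842 in C24 and 3371, 3155 and 3955 in Col. For PRK it was 4972, 4439 and 3078 in F1, 5568, 5452 and 4459 in C24 and 4098, 3907 and 3553 in Col. All 3 genes had their lowest deposited signal in F1 replicate 3, and only PRK had groups that did not overlap, with every C24 array above every Col array. As many as 11.4% of the tested probe sets were higher in C24 with no overlap on this scale, and after quantile normalization C24 and Col overlapped for PRK.

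**Figure D3:**
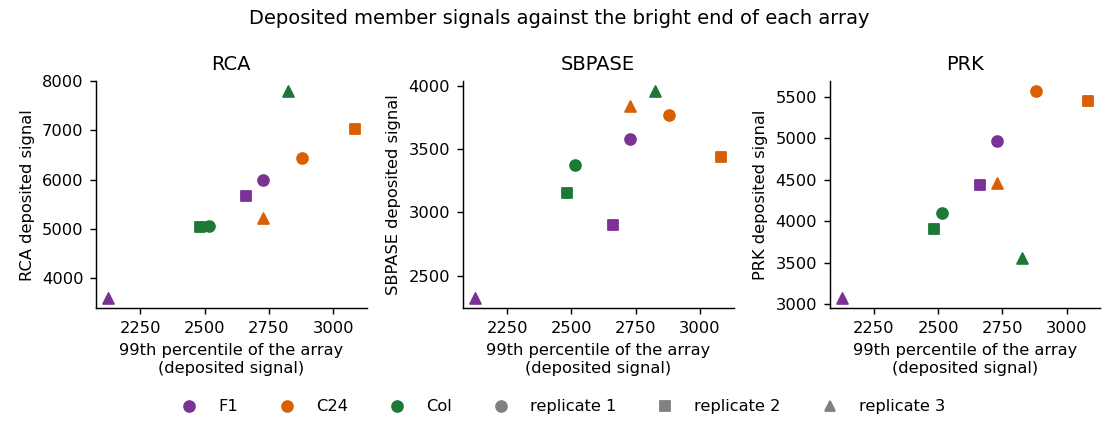
Deposited signal of RCA, SBPASE and PRK on each array (vertical axes, linear intensity, not starting at 0) against the 99th percentile of all deposited signals on the same array (horizontal axes). F1 replicate 3 is lowest on both axes in all 3 panels, and Col replicate 3 lies above the other arrays of like brightness for RCA and below them for PRK.

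With the deposited scaling, F1 differed from C24 in log2 by -0.32 for RCA, -0.35 for SBPASE and -0.33 for PRK (adjusted p = 0.626, 0.407 and 0.485 in limma). The median of the 117 bright probe sets moved by -0.31 in the same comparison, while the median of all tested probe sets was 0.04. Relative to that bright median, the 3 genes differed by -0.01, -0.04 and -0.02. The SE of the differences before this step were 0.24, 0.17 and 0.18, and no SE was estimated for the remainders. The 117 bright probe sets include the 3 genes themselves. The part of the bright end in the levels of the 3 genes was not tested. Without F1 replicate 3, a setting added after seeing the data, the differences with the deposited scaling were -0.09, -0.19 and -0.13.

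For C24 against Col, the deposited scaling gave log2 differences of 0.08 for RCA, 0.08 for SBPASE and 0.42 for PRK (adjusted p = 0.887, 0.843 and 0.21), where the bright median was 0.16. For RCA and SBPASE this is the opposite sign to that after quantile normalization. Relative to the bright median, RCA and SBPASE were at -0.08 each and PRK at 0.25. PRK was higher in C24 than in Col on both scalings and with a common median (0.55, adjusted p = 0.158 in limma). Its adjusted p came closest to the threshold with the deposited scaling and F1 replicate 3 left out (0.0617 in limma), the setting added after seeing the data. The difference stayed at 0.42 there, while its SE, shared over the groups, was 0.12 instead of 0.18. With a common median the median difference of all tested probe sets was 0.10 and that of the 117 bright ones 0.30. Relative to these PRK was at 0.45 and at 0.25.

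No pair of the 3 genes passed a test of correlation across the arrays once p was adjusted, over the 6 Pearson and the 6 Spearman values separately. After normalization, Pearson's r over the 9 arrays was 0.10 for RCA and SBPASE, -0.61 for RCA and PRK and -0.21 for SBPASE and PRK, with exact permutation p of 0.815, 0.118 and 0.645 (two-sided). Spearman's rho was -0.07, 0.16 and 0.12, with exact permutation p of 0.856, 0.675 and 0.76. The negative r of RCA and PRK rested on Col replicate 3, where RCA was highest and PRK lowest of all arrays. Without that array and C24 replicate 3, the arrays farthest from the median of RCA, r was 0.83. For the other pairs r without the 2 farthest arrays was 0.21 and -0.19.

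On the deposited scale r was 0.79 for RCA and SBPASE, 0.56 for RCA and PRK and 0.55 for SBPASE and PRK, with exact permutation p of 0.014, 0.115 and 0.128. Spearman's rho was 0.70, 0.50 and 0.37, with exact permutation p of 0.0433, 0.178 and 0.336. Over the 6 Pearson values the adjusted p of RCA and SBPASE was 0.0838, and over the 6 Spearman values it was 0.26, so neither passed. Without the 2 arrays farthest from the median of the first gene these values were 0.23, 0.94 and 0.03. The relation of RCA to SBPASE and that of SBPASE to PRK therefore rested on those arrays, with F1 replicate 3 among them in every pair.

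Col replicate 3 was also the array that stood farthest from its group over all genes. The median absolute log2 deviation of an array from the mean of the other arrays of its group, over all tested probe sets, was 0.27 there and between 0.19 and 0.25 in the other 8 arrays. In Col replicate 3 PRK deviated by -0.40 and RCA by 0.19, while SBPASE deviated by 0.03. A larger deviation than that of PRK was seen for 32.5% of the tested probe sets on that array, most of them less bright. Among the 117 bright probe sets the median absolute deviation there was 0.10, which PRK and RCA exceeded and SBPASE did not.

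The genes most like each member were ranked by Pearson's r over the 9 arrays among 8808 tested probe sets naming a single gene, as a description. For PRK the closest were PyrD (r = 0.98), a pyrimidine deaminase gene, AT5G64980 (0.96), AT3G16560 (0.96), AT5G14590 (0.96) and AT1G24140 (0.95). PyrD had normalized signals of 319, 262 and 222 in F1, 329, 261 and 266 in C24 and 262, 220 and 125 in Col. Like PRK it was lowest in Col replicate 3, and its highest arrays were replicate 1 of C24 and of F1. Without Col replicate 3, r with PRK was 0.94 for PyrD, 0.85 for AT5G64980, 0.69 for AT3G16560, 0.82 for AT5G14590 and 0.51 for AT1G24140. On the deposited scale r with PRK lay between 0.33 for AT1G24140 and 0.62 for PyrD. The normalized signal of AT1G24140 in Col replicate 3 was 0.54, below the floor of 1.

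For RCA the closest were AT1G70080 (r = 0.96), AT5G35530 (0.94), AT5G07020 (0.93), AT4G05160 (0.92) and AT2G35900 (0.92), and all of these were highest in Col replicate 3. AT5G35530 had normalized signals of 2662, 2378 and 2242 in F1, 2792, 2395 and 2256 in C24 and 2507, 2399 and 3193 in Col. Without Col replicate 3, r with RCA lay between 0.76 for AT4G05160 and 0.92 for AT1G70080. On the deposited scale it lay between 0.45 for AT2G35900 and 0.94 for AT5G35530. AT1G70080 had normalized signals between 9.13 and 26.1, close to the level of 11.1 below which probe sets were not tested.

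For SBPASE the closest were AT1G16800 (r = 0.93), AT4G24610 (0.92), AT5G24130 (0.90), AT3G56870 (0.89) and AT2G04280 (0.89). Normalized signals of AT1G16800 (9.08 to 16.7) and AT5G24130 (8.96 to 17.2) were also close to the filter level. AT2G04280 had normalized signals of 572, 492 and 546 in F1, 556, 547 and 679 in C24 and 653, 559 and 649 in Col. Its highest array was C24 replicate 3 and its lowest F1 replicate 2, as for SBPASE. Without Col replicate 3, r stayed at 0.89 to 0.93 for these 5 genes. On the deposited scale it was lower, between 0.32 for AT3G56870 and 0.64 for AT2G04280.

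The mean of the 3 genes, each centred first, was most like AT5G02830 (r = 0.93), AT5G55960 (0.92), AT1G72640 (0.92), AT3G20200 (0.90) and AT3G59910 (0.90) among 8806 probe sets. On the deposited scale these r were lower, between 0.15 for AT5G02830 and 0.58 for AT3G20200. AT3G20200 had normalized signals between 10.5 and 27.1, with its lowest array under the filter level. None of the 3 genes was among the 5 closest to another over the 9 arrays. For RCA, SBPASE stood at place 3690 and PRK at place 8233. For SBPASE, RCA stood at place 3563 and PRK at 6491, and for PRK, RCA stood at 8223 and SBPASE at 5781. Without Col replicate 3, r was 0.68 for RCA and PRK, -0.24 for RCA and SBPASE and 0.18 for SBPASE and PRK.

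The comparison was then widened to genes around the cycle, in 5 lists written from textbook knowledge. They covered other Calvin cycle enzymes, their redox regulation, Rubisco assembly, photorespiration and the cytosolic counterparts. The lists were chosen with earlier results of these data known, so their counts beside the shares of all probe sets are a description only. Of the 71 loci in these lists 21 were named by a tested probe set. The others may still be on the array, as 8730 probe sets were unnamed here and 503 that named several genes were not used. Between C24 and Col 1 of the 21 was higher and 3 were lower in limma, with a median log2 difference of 0.06, where the median of all tested probe sets was 0.03 and 8.47% of them were called. At an unadjusted p under 0.05 there were 8 of the 21, against 21.6% of all. Between F1 and C24 1 was higher and 1 lower, with a median of 0.01 against -0.03 for all and 2.08% called, and 4 of the 21 had an unadjusted p under 0.05, against 13% of all. In F1 against Col and against the mid-parent value 0 of the 21 passed in limma, with 3 and 2 at an unadjusted p under 0.05. Of all probe sets 0.509% and 0.0377% were called in these comparisons, and 8.92% and 5.04% had an unadjusted p under 0.05.

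Of the other Calvin cycle enzymes 2 of 20 loci were named by a tested probe set, and 0 of the 2 passed in limma. An unadjusted p under 0.05 was found for 1 between C24 and Col and for 0 in the other comparisons. AT5G64380 was at 277 ± 47.5 in F1, 317 ± 14.1 in C24 and 234 ± 20.4 in Col (SD, n = 3), and AT1G56190 at 1931 ± 179.6 in F1, 1568 ± 422 in C24 and 1832 ± 92 in Col. Their lowest adjusted p was 0.129, for AT5G64380 between C24 and Col.

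Of the redox regulators, which connect the cycle to light, 4 of 13 loci were named by a tested probe set. Of these, 0 passed in limma in any comparison, with 0 at an unadjusted p under 0.05. NTRC, the NADPH-dependent thioredoxin reductase of the chloroplast, was at 844 ± 181 in F1, 753 ± 139 in C24 and 762 ± 175.5 in Col. TRXF2, a thioredoxin of the f type that activates cycle enzymes, was at 655 ± 24.2 in F1, 584 ± 24.2 in C24 and 717 ± 132 in Col. ATHM2, thioredoxin m2, had a log2 difference of 0.18 between C24 and Col (adjusted p = 0.372).

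The calls lay mostly in the Rubisco assembly list, with 8 of 14 loci named by a tested probe set. AT5G28500 had a 4.53-fold lower signal in C24, at 346 ± 9.33 against 1589 ± 321 in Col (adjusted p = 2.18e-05 in limma). F1, at 1204 ± 90.5, was 3.47-fold higher than C24 (adjusted p = 0.000169 in limma). Cpn60beta3, a chaperonin subunit gene, was higher in C24, at 245 ± 13.8 against 112 ± 23.5 in Col (2.22-fold, adjusted p = 0.00233), and lower in F1, at 128 ± 12, than in C24 (1.91-fold, adjusted p = 0.022). LSMT-L, a gene like those of the methyltransferase that modifies the large Rubisco subunit, was lower in C24, at 169 ± 29.9 against 285 ± 20.9 in Col (1.7-fold, adjusted p = 0.0312). The remaining 5 genes of the list, Cpn60beta2 among them, did not pass in any comparison.

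The calls of AT5G28500 held in both comparisons whichever array was left out. That of Cpn60beta3 between F1 and C24 did not hold when any C24 array or F1 replicate 1 or 2 was left out, with adjusted p up to 0.0951. That of LSMT-L did not hold without the filter on dim probe sets, nor when any Col array, C24 replicate 2 or 3 or F1 replicate 2 was left out, with adjusted p up to 0.0956.

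In photorespiration, which recycles the product of the oxygenase reaction of Rubisco, 4 of 13 loci were named by a tested probe set. AT1G11860 was lower in C24, at 2298 ± 253 against 3217 ± 490 in Col (1.39-fold, adjusted p = 0.0411), but this call was lost under 13 of the 18 alternatives, among them the deposited scaling and a common median, and leaving out Col replicate 1 or 2, C24 replicate 2 or 3, or any array of the F1 (highest adjusted p 0.523). HPR, hydroxypyruvate reductase, was at 4014 ± 272 in F1, 4329 ± 244 in C24 and 3870 ± 435 in Col and did not pass. Of the cytosolic counterparts 3 of 11 were named by a tested probe set. Of these, 0 passed in limma, with 1 at an unadjusted p under 0.05 between F1 and Col. TPI, the cytosolic triose phosphate isomerase, was at 3666 ± 143.6 in F1, 3530 ± 217 in C24 and 3146 ± 19.4 in Col, and GAPC2, a cytosolic glyceraldehyde phosphate dehydrogenase, at 4250 ± 250.3 in F1, 4034 ± 289 in C24 and 3855 ± 385 in Col.

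**Figure D4:**
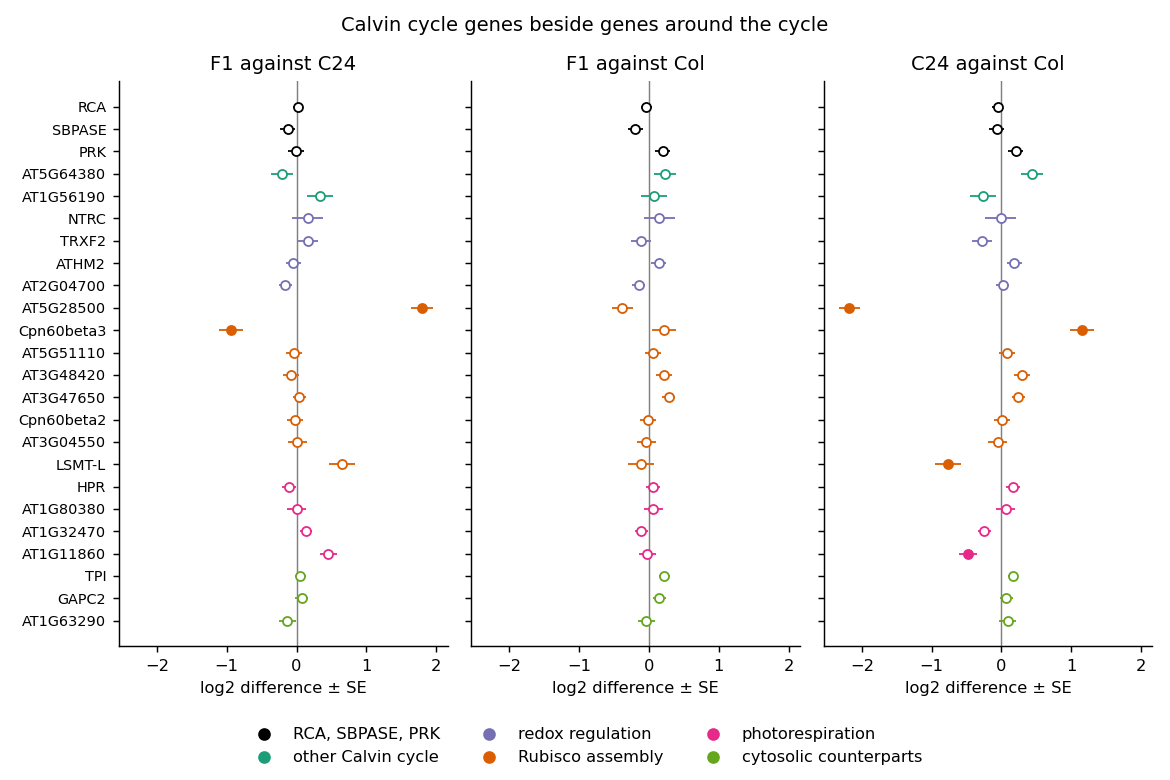
Log2 differences with their SE for RCA, SBPASE and PRK (top) and the 21 genes around the cycle named by a tested probe set, in 3 comparisons. Colours show the list, and filled points passed limma at an adjusted p under 0.05. The 3 genes at the top lie between -0.20 and 0.20 in every panel, while AT5G28500 lies at -2.18 in C24 against Col and at 1.80 in F1 against C24.

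Over the tested probe sets, r between arrays was 0.94 to 0.97 within a group and 0.90 to 0.97 between groups. None of the 8 listed green tissue markers was named by a probe set, so the content of green tissue was not checked. Only root markers were looked at, 3 of 12 of which were named. EXPA18, an expansin gene of root hairs, was at 17.3 ± 5.37 in F1, 9.6 ± 3 in C24 and 19.9 ± 6.69 in Col, lowest in C24 without passing (adjusted p = 0.122 for C24 against Col in limma). EXPA7, of the same family, was at 8.29 ± 2.74 in F1, 2.3 ± 1.16 in C24 and 8.21 ± 5.46 in Col and was not tested, as it lay below the filter level. PYK10 went the other way, at 654 ± 148 in F1, 1362 ± 427 in C24 and 279 ± 37.7 in Col, higher in C24 than in Col (adjusted p = 0.000241 in limma). With the replicate number as a block it also passed in F1 against Col (adjusted p = 0.0108 in limma). The summed signal of the 3 root markers, nearly all of it from PYK10, was 553 to 834 in F1, 1033 to 1850 in C24 and 267 to 336 in Col, and their part in the levels of RCA, SBPASE and PRK was not tested. GI was the only gene of the list of clock and light regulators named by a tested probe set (1 of 16). It was at 265 ± 40.2 in F1, 300.5 ± 22.6 in C24 and 262 ± 14.1 in Col and did not pass.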

How the data were processed

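Per the file headers and labels, the deposited table holds 1 intensity per probe set and array for 9 arrays, on a linear scale. The submitters' processing notes name GCOS, whose version is not given in the sources used here. These deposited intensity columns had trimmed means (2% left out at each end) of 150.01 to 150.02 and medians that spanned 0.24 in log2. Control probe sets (64) were set aside, and quantile normalization of the rest used limma 3.58.1 under R 4.3.3, after which values were set to at least 1 and taken to log2. Probe sets under the 30th percentile of mean log2 signal, a signal of 11.1, were left out. A limma fit (lmFit, eBayes with a trend) estimated 1 mean for each group from the 9 arrays together and gave each comparison, and the variance of the mid-parent value came from the delta method. The replicate number was not a factor in this fit, so its SE and p-values use no pairing by number. The number of arrays limits the precision, and p-values measure the spread between the samples that the labels call biological replicates.

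Gene names came from the platform annotation, updated to TAIR10.1 symbols: 13513 probe sets named 1 gene, 503 several, 8730 are unnamed here, and 13436 matched a locus. The genes and lists were chosen with earlier results of these data known. By rule the 3 genes were always named, with the listed genes that passed, some with the smallest p, and the 5 closest by correlation to each gene and to their mean. In a simulation of C24 against Col with 200 altered probe sets among 15922, the test found 16.4% of those altered 1.5-fold, 59.7% at 2-fold and 92.4% at 4-fold, and made 8 false calls. The altered probe sets were drawn from those above the median signal, with independent noise on each array. RCA, SBPASE and PRK varied less than most probe sets, so these shares do not hold for them. Alternatives tried were the scaling, the filter, the floor, the variance trend, the replicate block, the scale of the mid-parent value, a fit of 2 groups only and each array left out. Deviations from the group means correlated between arrays of the same number at 0.15 to 0.49 for C24 and Col. Unlike numbers reached at most 0.12 there, so the numbers were taken to pair C24 with Col, on the data and not the labels. For F1 and Col the same numbers gave 0.11 to 0.47. F1 replicate 2 correlated better with Col replicate 3 (0.13) than with Col replicate 2 (0.11). F1 replicate 3 correlated better with Col replicate 2 (0.18) than with Col replicate 3 (0.12). Only number 1 thus clearly paired F1 with Col. For F1 and C24 arrays of the same number correlated at 0.01 to 0.46. F1 replicate 1 was at 0.46 with C24 replicate 1 and at -0.10 and -0.35 with C24 replicates 2 and 3. F1 replicate 2 correlated better with C24 replicate 3 (0.20) than with C24 replicate 2 (0.01). Only number 1 thus clearly paired F1 with C24 too. Probe and gene sequences were not used here, so the part of sequence differences between C24 and Col in the signals was not tested.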

Additional observations from a re-analysis of the deposited data

How the results depend on the processing

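RCA, SBPASE and PRK stayed on the same side of the threshold, not passing, in all 12 comparisons under all 18 alternatives that were run for each; 194 of the values kept their sign and 22 changed it. With a common median the log2 difference of C24 from Col was 0.22 for RCA and 0.22 for SBPASE, that of F1 from C24 was -0.44 for RCA and that of F1 from the mid-parent value was -0.21 for PRK. With the deposited scaling these were 0.0837, 0.0805, -0.32 and -0.14, and with F1 replicate 3 left out as well, chosen after seeing the data, they were 0.0837, 0.0805, -0.0867 and 0.0652. The cause was not tested.

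With 1 array left out, the difference of C24 from Col ranged from -0.11 to 0.00817 for RCA and from -0.16 to 0.0238 for SBPASE. That of F1 from Col ranged from -0.0876 to 0.0258 for RCA, that of F1 from C24 from -0.0166 to 0.0477 for RCA and from -0.042 to 0.0239 for PRK, and that of F1 from the mid-parent value from -0.0359 to 0.0217 for RCA.

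The count of probe sets called moved more. For C24 against Col it was 1348, and 803 to 1320 with 1 array left out. For F1 against Col it was 81, with 43 when only the 2 groups were fitted, 37 with the deposited scaling and F1 replicate 3 left out, and 38 to 79 with 1 array left out. For F1 against C24 it was 331, with 214 at a filter of the 50th percentile and 169 to 340 with 1 array left out. For F1 against the mid-parent value it was 6, with 3 without a filter, 2 at the 50th percentile, 13 with a floor of 16, 34 with a log2-scale mid-parent value, 0 with the deposited scaling and F1 replicate 3 left out, and 0 to 5 with 1 array left out.

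With the replicate number entered as a block, 0 probe sets were called against the mid-parent value, 1735 for C24 against Col, 120 for F1 against Col and 448 for F1 against C24. Adjusted p for C24 against Col and for F1 against Col was 0.218 and 0.474 for PRK, 0.719 and 0.481 for SBPASE and 0.736 and 0.913 for RCA. Among the listed genes the block changed no call but that of PYK10, which then also passed in F1 against Col and in F1 against C24. In F1 against C24 and in F1 against Col the pairing was clear only for number 1. In 11 of 18 cases over all groups an array correlated best with its own number in another group.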
